A study of Mus musculus with 6 samples.

Results

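The genes of the mitochondrial respiratory chain and of the ATP synthase were examined in astrocyte cultures with and without Cre-mediated loss of Chd7, a chromatin remodeller of the chromodomain helicase family. Members were taken by gene symbol alone. They were the array probes of the subunits of complex I (symbols beginning with Nduf), complex II (Sdha to Sdhd), complex III (Uqcr and Cyc1), cytochrome c (Cycs), complex IV (Cox4 to Cox8) and the ATP synthase, also called complex V (Atp5). The symbols matched 99 of the 23473 probes, which stood for 94 genes. Of these, 98 probes of 93 genes had a deposited value on at least 3 of the 6 arrays and were kept. The probe left out was that of Cox8c, a testis isoform of cytochrome oxidase subunit 8, which had 1 deposited value and lay above background on 0 arrays. By complex there were 42 genes in complex I, 4 in complex II, 10 in complex III, 19 in complex IV and 17 in complex V, and Cycs stood alone. Ndufa4, long counted to complex I, is a subunit of cytochrome oxidase and was placed in complex IV, together with its relative Ndufa4l2. The 42 genes of complex I include 7 assembly factors (Ndufaf1 and Ndufaf3 to Ndufaf8) and Ndufa11b, a gene named for its likeness to Ndufa11, and those of complex III include a pseudogene, Uqcrh-ps1.

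The Cre cultures were cortical astrocytes of newborn C57BL/6J mice with floxed Chd7 on both alleles that had received a lentivirus carrying Cre, and the control cultures were the same kind of cells infected with a control lentivirus. Both were kept in medium with B-27, EGF, FGF2 and 10% serum and harvested 3 days after infection. Each group had 3 samples, each hybridised to its own 1-colour array. The recombinase was given only to the cultures that lost Chd7, so its own effect and that of the loss cannot be told apart. Where loxP sites and probes lie within Chd7 is not given in the labels, which also do not give the promoter that drove Cre or whether replicates came from separate cultures or animals.

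Complexes I and II take electrons from NADH and succinate and pass them to ubiquinone, complex III passes them on to cytochrome c, and complex IV to oxygen. Complexes I, III and IV pump protons across the inner membrane in doing so, and the ATP synthase uses their return to make ATP. Core subunits carry the redox centres, the catalytic head or the rotor, while accessory subunits surround them, and assembly factors help to build the complexes without staying in them. The members are nuclear genes, and several partner subunits are encoded by mitochondrial DNA. Astrocytes are known for a high rate of glycolysis, and they also respire.

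Values are log2 intensities after background correction against the blank spots and quantile normalisation, and differences are Cre minus control. Between 83.7% and 87.6% of all probes lay above background on Cre arrays, and between 87.6% and 90.7% on control arrays. Arrays correlated with each other at 0.985 to 0.995 across probes. The brighter Chd7 probe, M300016343, which checks the labels, read 6.00, 5.97 and 6.01 in Cre cultures, against 6.92, 7.49 and 6.95 in control cultures. The groups did not overlap, and the authors' deposited values for it were 8, 7 and 8 in Cre cultures, against 42, 89 and 46 in control cultures. The difference of -1.13 (SE 0.16) had a limma adjusted p of 0.401 over all probes. Its two-sided p by exact permutation was 0.1, and no smaller p can be had from 3 arrays a group. The second Chd7 probe lay close to background and differed by -0.11 (SE 0.058). All 12 astrocyte markers, Gfap, Aqp4 and Slc1a3 among them, lay above background on at least 3 arrays.

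All 98 member probes lay above background on at least 3 arrays, and 97 of them did so on all 6. The exception was Uqcrq, a small subunit of complex III. Its probe was above background on 0 of 3 Cre arrays and on 3 of 3 control arrays, at 5.70, 5.69 and 5.68 log2 units in Cre cultures, against 5.72, 5.70 and 5.74 in control cultures. All values lay close to the background limit and no fold is given. Among the tissue isoforms of complex IV, the dim probes were those of Cox6a2 and Cox8b, known from heart and muscle, and of Cox7b2, known from testis, each of which stayed at or under 6.02 log2 units on all 6 arrays.

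No member passed the test between Cre and control cultures (0 of 98 probes at a limma adjusted p under 0.05, smallest adjusted p = 0.711), as was so for all probes (0 of 20747, 0%). At an unadjusted p under 0.05 stood 8 member probes (8.16%), against 5.59% of all probes. All 8 were higher in Cre cultures, against 2.75% of all probes, and 0 were lower, against 2.83% of all probes. This split depended on the scaling and background: 1 was higher and 0 lower with median scaling, 3 and 1 with the blank mean subtracted, 4 and 7 with local background subtraction, and 1 and 2 in the authors' values. Shares over all probes are not given for these settings, so these counts cannot be read against them. The 3 Cre arrays lay wholly above the 3 control arrays for 7 member probes (7.14%), where the share over all probes was 5.23%, and wholly below for 0, where it was 5.27%. With 1 probe per gene, 57 of the 93 genes (61.3%) lay above 0 and 36 below, with a median difference of 0.055, while 49.9% of all 17285 genes lay above 0 with a median near 0 (-0.00015). The members' median was -0.11 with the local background column (all genes 0.033), -0.0055 with median scaling (all genes -0.0099) and -0.10 in the authors' values (all genes -0.079). Replicate numbers were taken to pair the arrays, and with the number as a block 14 member probes had an unadjusted p under 0.05 (14.3%, against 9.31% of all probes), of which 10 were higher (10.2%, against 4.51% of all probes) and 4 lower (4.08%, against 4.8%), again with 0 past the adjusted threshold. In RNA from whole cultures, fewer cells of a type and less RNA per cell cannot be told apart.

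The tilt was smaller than the spread between arrays. The median over the 93 genes of each array's value, less the gene's own mean, was -0.058, 0.086 and 0.023 on Cre arrays, against -0.13, -0.0076 and 0.061 on control arrays, with an SD within groups of 0.086. Control replicate 1 was the lowest array and Cre replicate 2 the highest, and the groups overlapped. In same-numbered pairs the median difference was 0.11, 0.052 and -0.033. Without control replicate 1 it was -0.018, without Cre replicate 2 it was 0.014, and without control replicate 3 it was 0.093. The number of member probes higher at an unadjusted p under 0.05 was 17 without control replicate 3, 3 without Cre replicate 2 and 4 without Cre replicate 1 or without control replicate 1, and 6 were lower without control replicate 1. These counts have no share over all probes of the same fit beside them and cannot be read as more or less than it. For all genes the same array medians lay between -0.0059 and 0.0039. Among the 1395 genes with a mean of at least 10 log2 units, 698 lay above 0 (median 0.00031), and among the 70 members at that brightness 48 did (median 0.060).

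**Figure D1:**
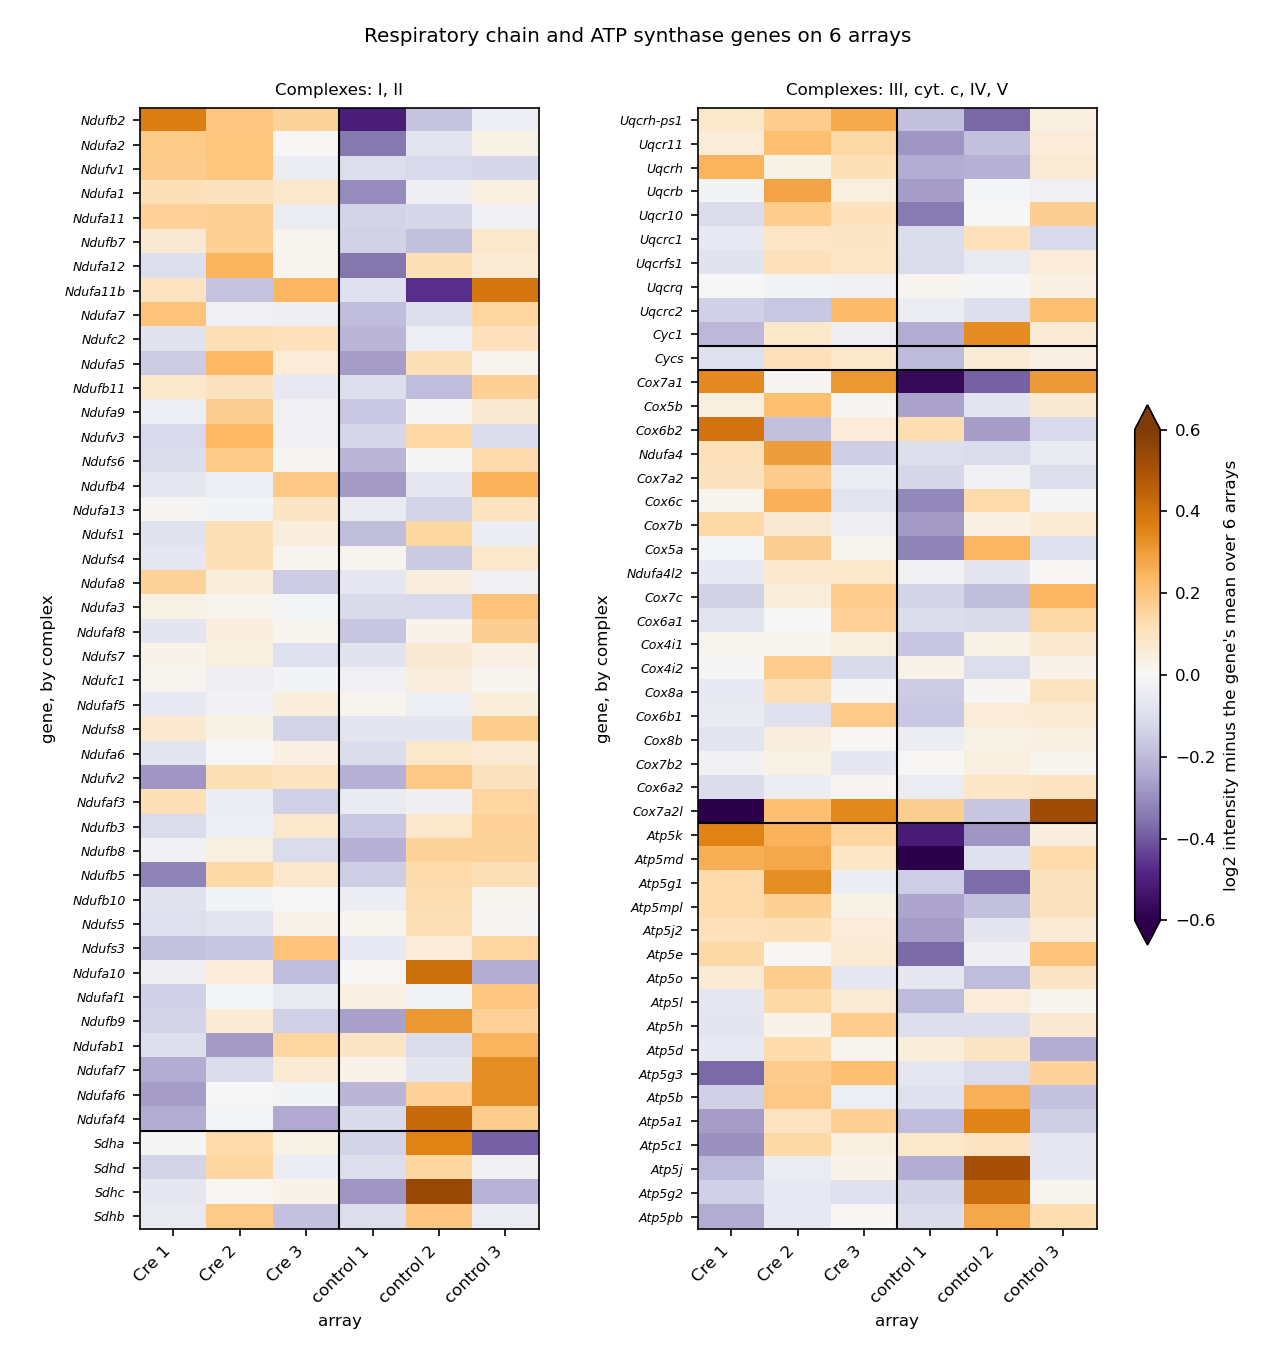
Each row is 1 gene (93 in all) and each column 1 array, Cre replicates left and control replicates right of the line. Colour is the log2 intensity minus the gene's mean over the 6 arrays, with the scale ending at 0.6 either way. Within a complex, genes run from the highest to the lowest Cre minus control difference. The column of control replicate 1 is mostly purple (below the mean) and that of Cre replicate 2 mostly orange (above it).

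**Figure D2:**
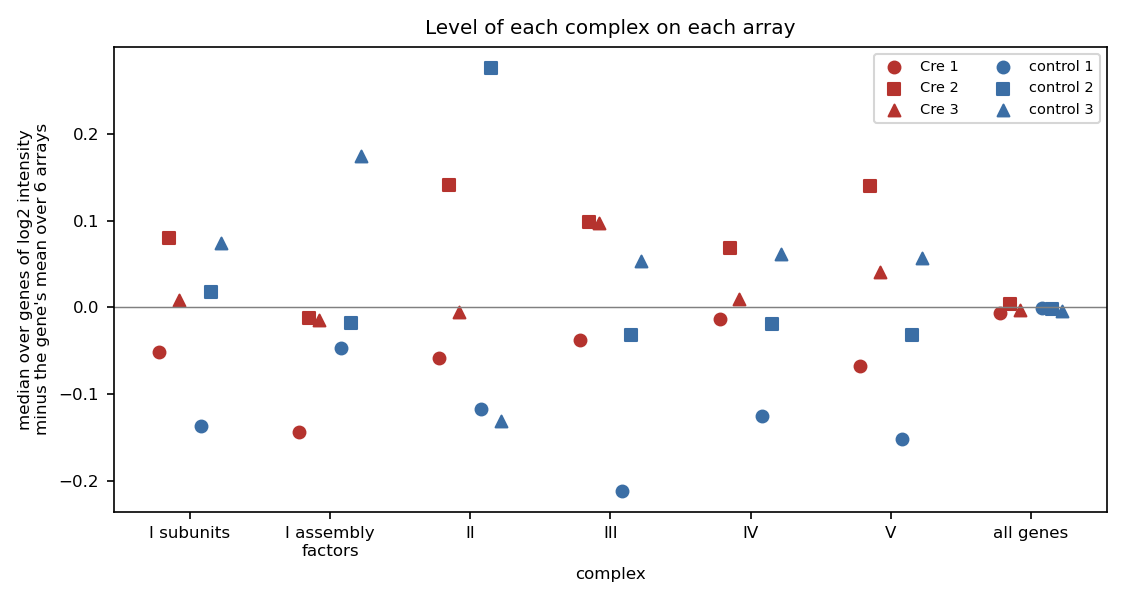
For each complex, a point gives the median over its genes of log2 intensity minus the gene's mean over the 6 arrays, with Cre arrays in red and control arrays in blue, and marker shape for the replicate. The groups overlap in every complex shown, and the spread is widest in complex II, where control arrays run between -0.13 and 0.28.

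By kind of member, the 62 accessory subunits had 44 genes above 0 and 18 below (median 0.066), and the 20 core subunits 9 above and 11 below (median -0.0098). The 7 complex I assembly factors matched by symbol (Ndufaf) had 0 above and 7 below (median -0.14). None of these 89 genes passed the adjusted threshold. For accessory subunits the median was below 0 with the local background column (-0.15) and in the authors' values (-0.081, where all genes stood at -0.079). It was 0.020 with median scaling, and it ran between 0.0055 without control replicate 1 and 0.13 without control replicate 3. For core subunits it took the other sign with the local background column (0.035), with cyclic loess (0.0053) and without Cre replicate 1 (0.083), Cre replicate 3 (0.025) or control replicate 2 (0.063). The median of the assembly factors stayed below 0 in each setting run, between -0.31 in the authors' values and -0.068 without control replicate 3, and it changed by over 1.5 times only in these 2 settings and with the blank mean subtracted (-0.22).

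**Figure D3:**
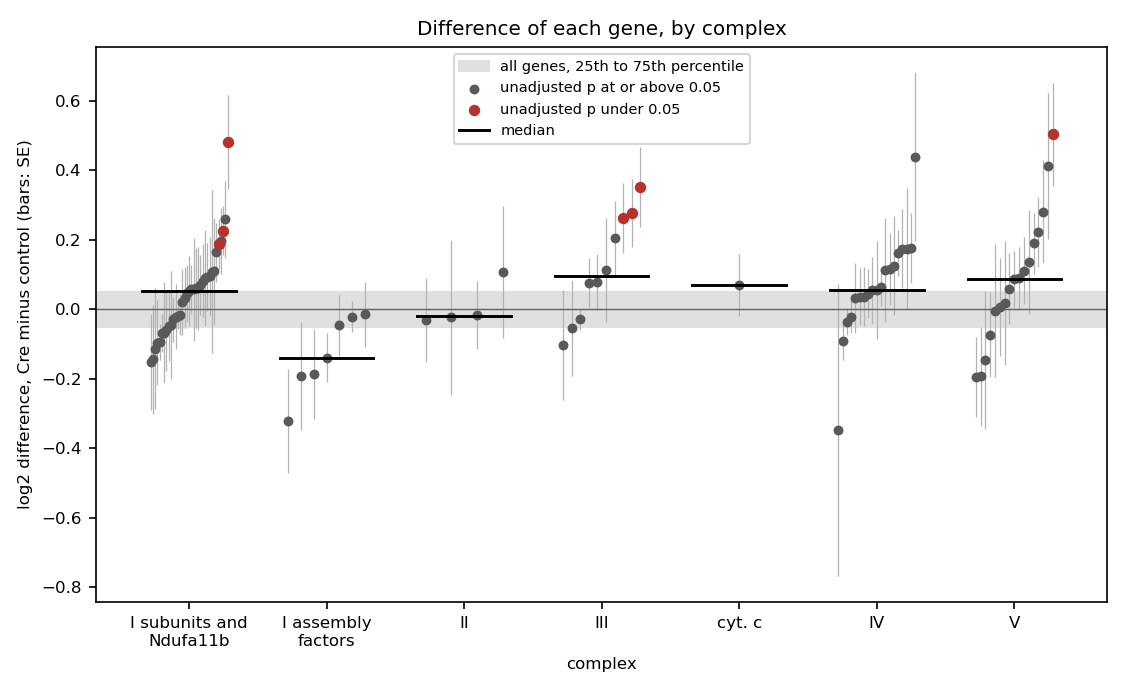
Each point is 1 gene's log2 difference (Cre minus control) with its SE, grouped by complex, with the group's median as a black line and the lower to upper quartile of all genes as a grey band. Red points had an unadjusted p under 0.05, and none passed after adjustment. All 7 Ndufaf assembly factors of complex I lie below 0 in the setting drawn (5 of 7 without Cre replicate 1 or control replicate 3), and the probe of Ndufaf5 is close to background.

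**Figure D4:**
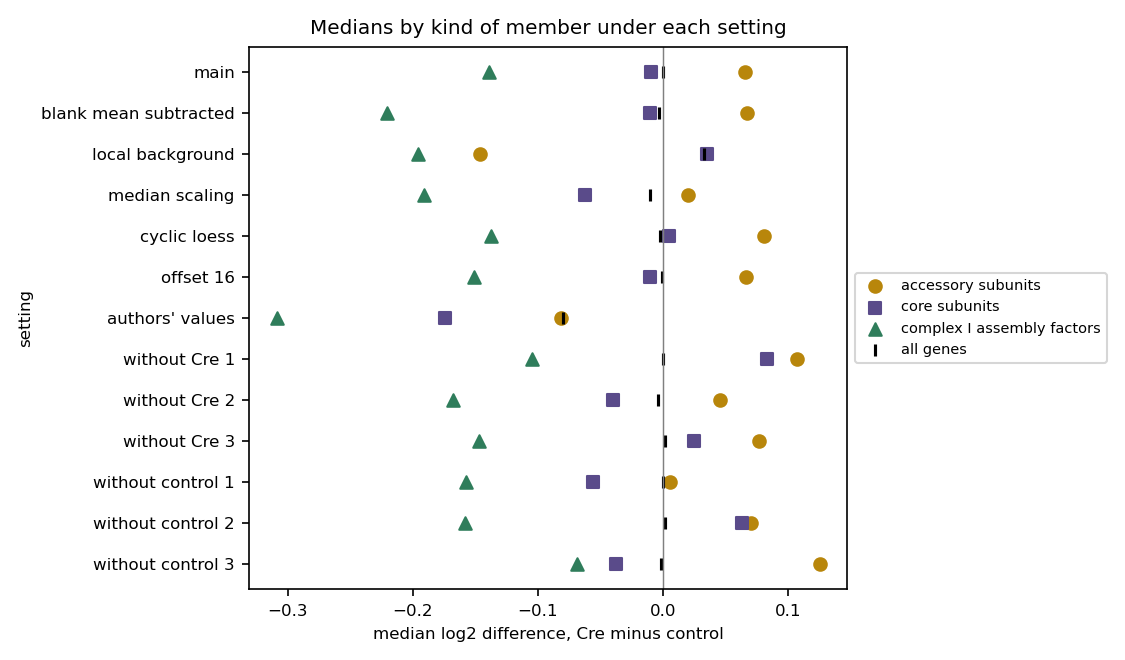
Median log2 difference (Cre minus control) of the accessory subunits, core subunits and complex I assembly factors, and of all genes, under the main processing, other ways of processing, and with each array left out. The median of the assembly factors (triangles) lies below 0 in every setting drawn, while that of the accessory subunits (circles) lies below 0 with the local background column and in the authors' values.

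Promoter sequence was not used in the choice by symbol. NRF1, a transcription factor named for its part in respiratory gene expression, binds a GC-rich palindrome. Among 80 promoter windows of 75 members in RefSeq (GRCm38.p6, 250 bases before to 50 after the start), 20 (25%) held the NRF1 motif on either strand, against 1356 of 21263 windows of protein-coding genes (6.38%). The ETS motif CCGGAAG, bound by GABPA, was in 22.5% of member windows and 11.6% of all, CCATNTT (YY1) in 27.5% and 15.1%, and the E-box CACGTG in 8.75% and 7.84%. Member windows also held more CpG sites, a median of 20 against 13, which the NRF1 and ETS motifs contain, so the shares are descriptions only. The median difference was 0.055 in the 19 members with an NRF1 motif and 0.058 in the others with a window. The stretches printed here, with matches in capitals on the strand of the gene, were limited to windows with an NRF1 or ETS match. That each carries a motif was therefore fixed by the choice. Ndufb2 and Ndufv1, both above 0, had neither motif, and Atp5k also held an ETS match outside the stretch printed. The stretches are of 3 members above 0 (Atp5k, Ndufa11, Uqcr11), of 2 assembly factors below 0 (Ndufaf4, Ndufaf1) and of Sdha, with 3 NRF1 matches.
Atp5k (chr5:108434430-108434459, minus strand): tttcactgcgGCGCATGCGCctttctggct
Ndufa11 (chr17:56717692-56717721, plus strand): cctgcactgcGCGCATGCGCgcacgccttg
Uqcr11 (chr10:80406871-80406897, minus strand): tctctcctccCCGGAAGtagatgtcaa
Ndufaf4 (chr4:24897960-24897989, plus strand): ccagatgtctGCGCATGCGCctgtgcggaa
Ndufaf1 (chr2:119662836-119662862, minus strand): gggaccacaaCCGGAAGcgtggcgaac
Sdha (chr13:74350241-74350348, minus strand): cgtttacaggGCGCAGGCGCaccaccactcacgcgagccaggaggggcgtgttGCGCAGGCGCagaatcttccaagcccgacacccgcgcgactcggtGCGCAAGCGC

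Complex I, the NADH dehydrogenase, had 21 genes above and 21 below 0 (median 0.0037, -0.28 with local background subtraction and -0.13 in the authors' values), and its subunits alone 20 and 14 (median 0.049). Ndufb2, an accessory subunit of the membrane arm, had the smallest p of the complex. It read 10.47, 10.29 and 10.25 log2 units in Cre cultures, against 9.59, 9.92 and 10.06 in control cultures. All 3 Cre arrays lay above all control arrays, with control replicate 1 the lowest. The difference was 0.48 (SE 0.13, 95% interval 0.15 to 0.82), with a limma adjusted p of 0.711, and it was -1.35 with the local background column and 0.30 in the authors' values. Ndufv1, the core subunit that holds the flavin where NADH gives up its electrons, read 10.33, 10.35 and 10.11 log2 units in Cre cultures, against 10.05, 10.03 and 10.03 in control cultures. The control arrays lay close together and all Cre arrays were higher, Cre replicate 3 least so. The difference was 0.23 (SE 0.072, limma adjusted p = 0.762). It was 0.56 with local background subtraction, 0.15 with median scaling and 0.043 in the authors' values. Ndufa11, an accessory subunit of the membrane arm, read 11.45, 11.45 and 11.24 log2 units in Cre cultures, against 11.16, 11.16 and 11.26 in control cultures. Cre replicates 1 and 2 were above every control array, but Cre replicate 3 was not, and the difference was 0.19 (SE 0.072, limma adjusted p = 0.862). It was 0.75 with local background subtraction and 0.028 in the authors' values. Ndufa1, a small accessory subunit, had every Cre array above every control array, as did 928 of all 17285 genes, with a difference of 0.20 (SE 0.094). It was 0.093 without control replicate 1. Its deposited values overlapped, at 2116, 1840 and 2074 in Cre cultures, against 1534, 2088 and 2376 in control cultures.

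The other core subunits of complex I are iron-sulfur proteins except Ndufs3. Ndufs1, the largest, stood at 0.053 (SE 0.10), Ndufs7, with the last cluster before ubiquinone, at -0.016 (SE 0.060), Ndufs8 at -0.021 (SE 0.093), Ndufv2 at -0.046 (SE 0.16) and Ndufs3 at -0.10 (SE 0.12). Among accessory subunits the lowest p below 0 belonged to Ndufs5, which averaged 11.68 ± 0.061 in Cre and 11.77 ± 0.064 in control cultures (SD, n = 3 each) and whose groups overlapped, with a difference of -0.095 (SE 0.052). It was -1.38 with local background subtraction, -0.26 in the authors' values, -0.15 with median scaling and -0.058 without control replicate 2. Ndufab1, the mitochondrial acyl carrier protein, had a dim probe. It read 6.53, 6.35 and 6.77 log2 units in Cre cultures, against 6.72, 6.52 and 6.87 in control cultures. The difference was -0.15 (SE 0.14), with same-numbered pairs at -0.19, -0.16 and -0.10, and it was -0.051 without Cre replicate 2. Ndufa13, also known as GRIM-19, had 2 probes: the bright one stood at 0.058 (SE 0.070) and the dim one at 0.17 (SE 0.052). The 2 probes of Ndufb5 had opposite signs, -0.067 (SE 0.15) for the brighter and 0.24 (SE 0.28) for the dimmer. Ndufa11b varied most among the brightest probes of the complex, with values of 9.61, 9.34 and 9.75 log2 units in Cre cultures, against 9.42, 9.04 and 9.90 in control cultures, and its difference of 0.11 was smaller than its SE of 0.23.

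The 7 assembly factors of complex I matched by symbol (Ndufaf) had every gene below 0. The count was 6 of 7 with local background subtraction or without Cre replicate 3, and 5 of 7 without Cre replicate 1 or without control replicate 3. Outside the symbol rule, assembly factors of complex I lay on both sides of 0. Tmem126b stood at 0.14, Acad9 at 0.12, Tmem186 at 0.043 and Timmdc1 at 0.026, against Nubpl at -0.18, Dmac1 at -0.17, Foxred1 at -0.10 and Ecsit at -0.094. Ndufaf4 read 8.53, 8.76 and 8.53 log2 units in Cre cultures, against 8.65, 9.19 and 8.94 in control cultures. Cre replicates 1 and 3 were below every control array, and Cre replicate 2 was above control replicate 1. The difference was -0.32 (SE 0.15, 95% interval -0.69 to 0.049, limma adjusted p = 0.937). It was -0.19 without control replicate 2, -0.044 with local background subtraction and -0.51 in the authors' values. Ndufaf1, which acts early in assembly, read 8.62, 8.75 and 8.71 log2 units in Cre cultures, against 8.79, 8.74 and 8.95 in control cultures, with a difference of -0.14 (SE 0.069), and its groups overlapped. It was -0.077 without control replicate 3 and -0.31 in the authors' values. Ndufaf6 stood at -0.19 (SE 0.16), Ndufaf7, a methyltransferase that acts on a complex I subunit, at -0.19 (SE 0.13), Ndufaf3 at -0.046 (SE 0.088) and Ndufaf8 at -0.015 (SE 0.093). The probe of Ndufaf5 lay close to background, at or under 5.85 log2 units on all 6 arrays, and stood at -0.021 (SE 0.045). By array the median of the 7 was -0.14, -0.012 and -0.014 on Cre arrays, against -0.047, -0.018 and 0.17 on control arrays. Control replicate 3 was highest and Cre replicate 1 lowest, with the others close together. With the replicate block, Ndufaf4 and Ndufaf7 were lower at an unadjusted p under 0.05, as were 858 of all 17285 genes, and neither passed after adjustment.

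Complex II, the succinate dehydrogenase, which also serves the tricarboxylic acid cycle, showed no difference larger than the spread between arrays in any of its 4 subunits. Their median was -0.020, and 0.36 with local background subtraction, -0.19 in the authors' values and 0.15 without control replicate 2. Sdha, the flavoprotein that oxidises succinate, read 11.47, 11.61 and 11.50 log2 units in Cre cultures, against 11.34, 11.83 and 11.09 in control cultures, and the Cre values lay inside the control range. Its difference was 0.11 (SE 0.19), and it was -0.060 without control replicate 3. Sdhb, the iron-sulfur subunit, stood at -0.031 (SE 0.12, 95% interval -0.33 to 0.27). Sdhc, a membrane anchor, was among the 4 members with the widest spread within groups. It read 11.93, 11.99 and 12.02 log2 units in Cre cultures, against 11.71, 12.53 and 11.77 in control cultures, where control replicate 2 stood apart, and the difference was -0.023 (SE 0.22) with it and 0.24 without it. Sdhd, the other anchor, stood at -0.017 (SE 0.10), with pairs at -0.033, -0.0027 and -0.015.

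In complex III, the cytochrome bc1 complex, 7 of 10 genes lay above 0 (median 0.096, and -0.064 in the authors' values, where all genes stood at -0.079, and -0.25 with the local background column). At an unadjusted p under 0.05, 3 of the 10 were higher, where 2.89% of all genes were. Among the 3 was the pseudogene Uqcrh-ps1. Uqcr11, a small subunit, read 11.93, 12.09 and 12.01 log2 units in Cre cultures, against 11.59, 11.69 and 11.93 in control cultures. The groups did not overlap, though Cre replicate 1 and control replicate 3 were alike to within rounding. The difference was 0.28 (SE 0.10, 95% interval 0.032 to 0.52, limma adjusted p = 0.817). It was 0.94 with local background subtraction and 0.10 in the authors' values. Uqcrh, the hinge protein, read 11.91, 11.69 and 11.78 log2 units in Cre cultures, against 11.43, 11.44 and 11.72 in control cultures, so that control replicate 3 reached above the lowest Cre array. Its difference was 0.26 (SE 0.10), -1.13 with the local background column and 0.091 in the authors' values. The probe of the pseudogene Uqcrh-ps1 read 11.48, 11.57 and 11.66 log2 units in Cre cultures, against 11.21, 11.02 and 11.44 in control cultures, without overlap, and differed by 0.35 (SE 0.12, limma adjusted p = 0.777). It was 1.10 with local background subtraction and 0.19 in the authors' values. Transcripts of the gene and of its near-identical copy may bind either probe, so these 2 values may not be independent.

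Among the redox subunits of complex III, the Rieske iron-sulfur protein Uqcrfs1 stood at 0.077 (SE 0.071) and cytochrome c1, Cyc1, at -0.10 (SE 0.16). Cyc1 read 10.75, 11.03 and 10.92 log2 units in Cre cultures, against 10.72, 11.29 and 11.01 in control cultures, and without control replicate 2 its difference was 0.038. Uqcrb, a small subunit near the ubiquinone site, stood at 0.20 (SE 0.11) and was higher in all 3 pairs, by 0.25, 0.29 and 0.065. The core protein Uqcrc2 had 2 probes that disagreed in sign: the brighter stood at -0.055 (SE 0.14) and the dimmer, which read 8.09, 8.40 and 8.18 log2 units in Cre cultures, against 7.86, 6.37 and 8.75 in control cultures, at 0.56 (SE 0.59), with control replicate 2 far below the rest. Cytochrome c itself, Cycs, which carries electrons between complexes III and IV and also triggers apoptosis when released, read 10.23, 10.42 and 10.39 log2 units in Cre cultures, against 10.12, 10.37 and 10.35 in control cultures. It was higher in all 3 pairs by 0.11, 0.052 and 0.047, and the difference of 0.070 (SE 0.090) was within the spread of either group.

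**Figure D5:**
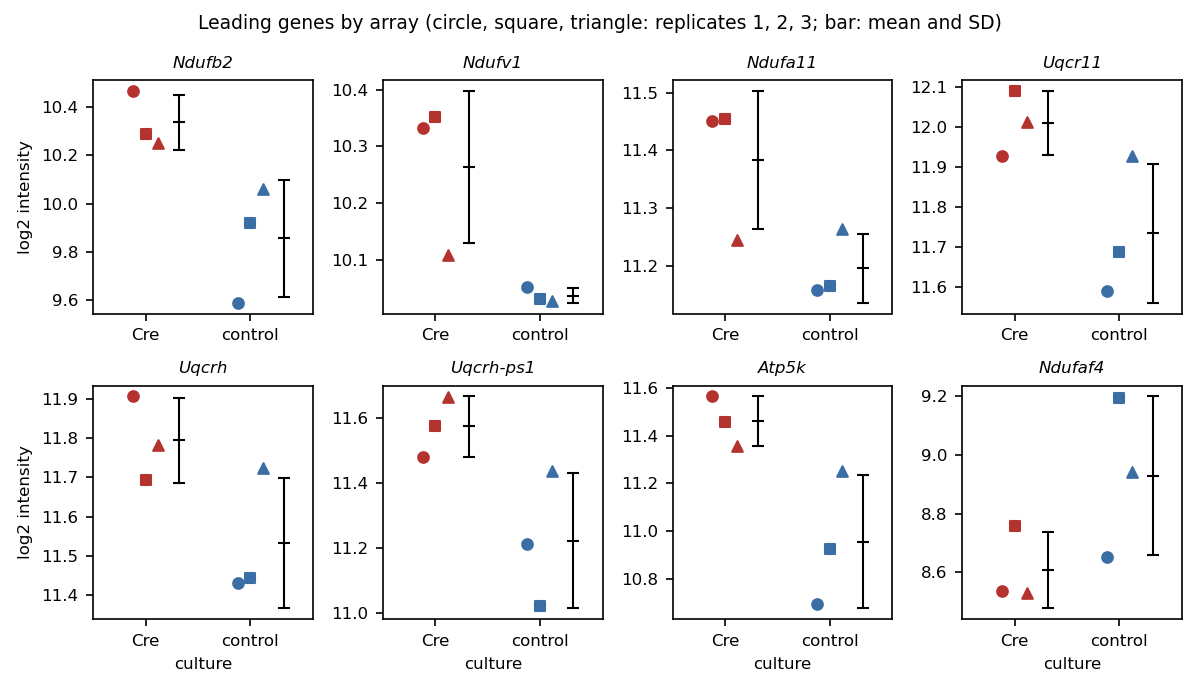
Log2 intensity on each array, Cre cultures in red at the left and control cultures in blue at the right of each panel, with mean and SD beside them; axes do not start at 0. The 7 genes with an unadjusted p under 0.05 are followed by Ndufaf4, the assembly factor with the smallest p. Ndufb2, Ndufv1, Uqcr11, Uqcrh-ps1 and Atp5k show no overlap between the groups, Ndufa11, Uqcrh and Ndufaf4 do, and the differences of Ndufb2 and Uqcrh were below 0 with the local background column (-1.35 and -1.13).

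Complex IV, the cytochrome oxidase, had 15 of 19 genes above 0 and 4 below (median 0.056, and -0.081 in the authors' values). At an unadjusted p under 0.05 stood 0 genes, and 2 with the replicate block, Cox7a2 and Cox6b2, neither past the adjusted threshold. Both were higher, as were 814 of all 17285 genes with the block at that p. Cox7a2, the common isoform of subunit 7a, read 12.53, 12.61 and 12.39 log2 units in Cre cultures, against 12.31, 12.41 and 12.33 in control cultures, with a difference of 0.16 (SE 0.067, limma adjusted p = 0.916), and only Cre replicate 3 lay inside the control range. It was -0.27 with the local background column and -0.039 in the authors' values. Its heart and muscle counterpart Cox7a1 read 8.92, 8.59 and 8.90 log2 units in Cre cultures, against 8.01, 8.20 and 8.88 in control cultures. Control replicate 3 lay among the Cre arrays while the other control arrays were lower, and the difference was 0.44 (SE 0.24), 0.26 without control replicate 1 and 0.70 without control replicate 3. Cox7a2l, related to subunit 7a and known for joining complexes III and IV, had the widest spread within groups among the probes that stand for a gene. It read 9.51, 10.81 and 10.94 log2 units in Cre cultures, against 10.76, 10.42 and 11.11 in control cultures. Cre replicate 1 stood apart below all other arrays, and the difference of -0.35 (SE 0.42) became 0.11 without it.

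Of the other isoform pairs, Cox4i1, the common form of subunit 4, stood at 0.045 (SE 0.070, 95% interval -0.13 to 0.22), and Cox4i2, known from lung and from cells at low oxygen, at 0.036 (SE 0.085, 95% interval -0.18 to 0.25). Ndufa4l2, another gene known to respond to low oxygen, stood at 0.063 (SE 0.052), and its relative Ndufa4 at 0.17 (SE 0.11). Cox6a1 stood at 0.055 (SE 0.10), and its muscle form Cox6a2 at -0.091 (SE 0.056). Cox6b1 stood at 0.033 (SE 0.10), while Cox6b2, known from testis, had 2 bright probes at 0.17 (SE 0.17) and 0.24 (SE 0.20) and a dim one at -0.060 (SE 0.048). The bright Cox6b2 probe M400003897 read 11.09, 10.51 and 10.75 log2 units in Cre cultures, against 10.82, 10.43 and 10.58 in control cultures and was higher in all 3 pairs, by 0.27, 0.085 and 0.17. Its difference was 0.021 without Cre replicate 1, 0.083 without control replicate 2, 0.28 without control replicate 1, 0.31 without Cre replicate 2 and -0.0035 in the authors' values. Cox8a stood at 0.036 (SE 0.082), Cox8b at -0.021 (SE 0.046) and Cox7b2 at -0.036 (SE 0.039). Cox5b, the zinc-binding subunit, averaged 12.66 ± 0.11 in Cre and 12.49 ± 0.16 in control cultures (SD, n = 3 each), a difference of 0.18 (SE 0.10). It was 0.093 without control replicate 1, 0.11 without Cre replicate 2, 0.10 with median scaling and -0.011 in the authors' values.

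In complex V, the ATP synthase, 12 of 17 genes lay above 0 (median 0.086, -0.039 with local background subtraction and -0.10 in the authors' values). Atp5k, subunit e of the membrane part, had the largest difference above 0 of the 93 genes. It read 11.56, 11.46 and 11.36 log2 units in Cre cultures, against 10.69, 10.92 and 11.25 in control cultures. The groups did not overlap, with control replicate 3 closest to the Cre arrays. The difference was 0.50 (SE 0.15, 95% interval 0.13 to 0.87), with a limma adjusted p of 0.73, and it was 0.31 with local background subtraction and 0.34 in the authors' values. Other small membrane subunits lay above 0 as well: Atp5mpl at 0.22 (SE 0.10, and -0.22 with the local background column), Atp5md at 0.41 (SE 0.21) and subunit f, Atp5j2, at 0.19 (SE 0.087, 0.10 without control replicate 1 and 0.019 in the authors' values). Atp5md read 12.56, 12.58 and 12.39 log2 units in Cre cultures, against 11.64, 12.22 and 12.44 in control cultures, where control replicate 1 was far below the others, and its difference was 0.18 without that array. Subunit g, Atp5l, stood at 0.091 (SE 0.089).

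In the catalytic head and the central stalk of the synthase, the alpha subunit Atp5a1 stood at -0.0039 (SE 0.19), the beta subunit Atp5b at 0.0071 (SE 0.14), and the stalk subunits Atp5c1, Atp5d and Atp5e at -0.073 (SE 0.12), 0.059 (SE 0.10) and 0.14 (SE 0.15). The genes Atp5g1, Atp5g2 and Atp5g3 encode the same mature subunit c of the rotor ring with different import signals. Atp5g1 read 9.60, 9.80 and 9.43 log2 units in Cre cultures, against 9.32, 9.10 and 9.57 in control cultures, a difference of 0.28 (SE 0.15). Atp5g2 read 11.39, 11.48 and 11.44 log2 units in Cre cultures, against 11.40, 11.95 and 11.54 in control cultures, a difference of -0.19 (SE 0.14) in which control replicate 2 was the highest. It was -0.034 without that array, -0.31 without control replicate 1, -2.01 with local background subtraction and -0.35 in the authors' values. Atp5g3 stood at 0.017 (SE 0.18), with Cre replicate 1 low. None of the 3 passed, and whether they differ from each other was not tested. In the outer stalk, Atp5pb (subunit b) read 12.78, 12.96 and 13.03 log2 units in Cre cultures, against 12.92, 13.30 and 13.15 in control cultures, a difference of -0.20 (SE 0.11) with all 3 pairs below 0. It was -0.11 without control replicate 2, -0.30 without control replicate 1, -0.12 without Cre replicate 1, -0.38 with local background subtraction and -0.33 in the authors' values. Atp5j (subunit F6) stood at -0.15 (SE 0.20), and without control replicate 2 at 0.073, while Atp5h and Atp5o stood at 0.086 (SE 0.083) and 0.11 (SE 0.10).

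In the main setting, the 95% interval lay within a 1.5-fold change in either direction for 82 of the 93 genes and within a 2-fold change for 91, with SEs between 0.031 and 0.42 (median 0.10). Values of single genes with local background subtraction were taken for the 39 named genes only. Among them Cox7a2l (-1.45), Ndufs5 (-1.38), Cycs (-1.38), Cox6b1 (-1.26), Uqcrc2 (-1.19) and Sdha (1.10) lay beyond a 2-fold change. So did the genes given above with a size over 1. The intervals thus cover the spread between arrays and not the choice of background. They are on a scale that compresses changes of dim probes, and the number of arrays limits their precision. Astrocyte markers were above 0 in 12 of 12 measured genes (median 0.24) and their deposited values summed to 6932, 7678 and 8810 in Cre cultures, against 5254, 9140 and 8054 in control cultures. At an unadjusted p under 0.05, 5 of the 12 were higher, where 2.89% of all genes were, with Aldh1l1 at 0.72 (SE 0.17) and Hepacam at 0.32 (SE 0.051). Microglia markers were below 0 in 7 of 10 measured genes (median -0.14), with sums of 310, 278 and 360 in Cre cultures, against 385, 393 and 360 in control cultures. Of these 10, 4 were lower at an unadjusted p under 0.05 without overlap, among them C1qa at -0.67 (SE 0.11) and C1qb at -0.71 (SE 0.17), and Cd68 was higher at 0.48 (SE 0.078). Over all genes, 2.93% were lower at an unadjusted p under 0.05, and 909 of 17285 were lower without overlap. Fibroblast and mural cell markers were below 0 in 5 of 7 genes (median -0.10). Their sums were 8893, 5710 and 6225 in Cre cultures, against 10138, 8778 and 6116 in control cultures. Most of each sum was Acta2, at 8336, 5611 and 5806 in Cre cultures, against 9409, 8635 and 5684 in control cultures. The array medians of the list were lowest on both replicate 2 arrays, at -0.51 in each group. Neuron markers were measured in 10 of 11 genes, with sums of 417 to 526 in Cre cultures, against 475 to 647 in control cultures. Of the 10, 6 lay above 0 (median 0.0037). At an unadjusted p under 0.05, Nefm at 0.39 (SE 0.074) and Nefl at 0.16 (SE 0.055) were higher and Stmn2 at -0.34 (SE 0.12) lower. The shares of all genes at that p were 2.89% higher and 2.93% lower. Stmn2 alone had deposited values of 268, 239 and 247 in Cre cultures, against 366, 445 and 306 in control cultures. Endothelial markers were measured in 3 of 6, with sums of 52 to 118 in Cre cultures, against 58 to 175 in control cultures. Oligodendrocyte and precursor markers were below 0 in 6 of 9 genes (median -0.018), with sums of 1678 to 2507 in Cre cultures, against 1813 to 3342 in control cultures. Ependymal markers were above 0 in 3 of 3 (median 0.071), with sums of 231 to 455 in Cre cultures, against 185 to 419 in control cultures. No marker passed the adjusted threshold. Their part in the values of the respiratory chain genes was not tested.

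Other genes that serve respiration, from lists made with earlier results known, gave 0 members past the adjusted threshold. Of 39 measured further assembly factors, 15 lay above and 24 below 0 (median -0.031), with 2 lower and 0 higher at an unadjusted p under 0.05 (over 1 probe per gene, 2.93% of all genes were lower and 2.89% higher). The 2 were Sdhaf3, which serves complex II, at -0.24 (SE 0.074), and Coa6, a copper factor of complex IV, at -0.24 (SE 0.088). Of 18 regulators of mitochondrial biogenesis, 12 lay below 0 (median -0.052), led by Tfb1m, which methylates mitochondrial ribosomal RNA, at -0.35 (SE 0.11), and Ssbp1, which binds single-stranded mitochondrial DNA, at -0.14 (SE 0.069). Protein import had 12 of 18 genes below 0 (median -0.11), with the receptor Tomm22 at -0.25 (SE 0.069) and the pore Tomm40 at 0.24 (SE 0.094). Cristae organisation and ATP export had 11 of 15 below 0 (median -0.041), with Apool at -0.30 and Chchd3 at -0.19, and coenzyme Q and cytochrome c maturation 8 of 13 (median -0.031), with Coq8b at 0.17 and Coq2 at -0.28. On the fuel side, the tricarboxylic acid cycle had 8 of 13 above 0 (median 0.034), with Suclg2 at -0.14 and Idh3g at 0.20. The list of pyruvate and fatty acid supply had 16 of 21 above 0 (median 0.070), with the acyl-CoA dehydrogenase Acadvl at 0.24 (SE 0.060) and the pyruvate dehydrogenase kinase Pdk4 at 0.24 (SE 0.070). As the list also holds regulators such as Pdk4, its count above 0 gives no direction of supply.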

How the data were processed

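RNA from 3 Cre and 3 control cultures was amplified and Cy5-coupled, and each sample was put on 1 oligonucleotide array, per the labels. The deposited scanner tables give a median intensity and a local background intensity per spot, unsubtracted, per the file headers. The authors also deposited processed intensities with a median of 25 per array. They followed the spot less the blank mean, divided by 1.44 to 1.94 per array, and their making is not stated in the labels.

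Intensities were corrected by normexp against 2736 blank spots (limma 3.58.1, nec, offset 50, R 4.3.3), put on a log2 scale and quantile normalised. Marked probe spots (0 to 9 per array) were omitted between the correction and the normalisation. The correction itself used all 2736 blanks, marked ones (0 to 3 per array) included. The background limit, which left marked blanks out, was 2 SD over the blank mean. Probes above it on 3 arrays (20747) were tested with limma (two-sided, Benjamini-Hochberg, threshold 0.05), a fit tested on simulated data, and the brightest probe stood for a gene. The platform annotation named 20690 probes, 20556 of which matched RefSeq (GRCm38.p6), and left 2783 unnamed.

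Same-numbered arrays deviated together (correlations 0.498, 0.425 and 0.436), so replicate numbers were taken as pairs, which the labels do not state. As they do not say either that replicates are separate cultures, the p-values cover the spread among these arrays only, possibly a technical one. Members and lists were chosen with earlier results of these data known. By rule, the named genes were the 3 smallest p each way in complexes I, III, IV and V, all Sdh genes, Cycs, the isoform sets, the 4 widest within groups and up to 2 of each related list; further members are given as part of their complex. Alternatives were other backgrounds, scalings, filters and offsets, the authors' values (pseudocount 16), the block and leaving out each array.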

Additional observations from a re-analysis of the deposited data

How the results depend on the processing

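No member passed the adjusted threshold in any setting run, the replicate block included, and Chd7 kept its direction, between -2.71 (blank mean subtracted) and -0.52 (local background column). The count of member probes higher at an unadjusted p under 0.05 (8 in the main setting) was 3 with the blank mean subtracted, 4 with the local background column, 1 with median scaling and 1 in the authors' values. The count of those lower (0 in the main setting) was 1, 7, 0 and 2 in these settings and 4 with the replicate block. With 1 array left out, the first count ranged from 3 to 17 and the second from 0 to 6. Apart from the main setting and the replicate block, no share over all probes is given beside these counts. The median over members was -0.108 with the local background column and -0.101 in the authors' values; by complex the local column gave -0.281 (I), 0.363 (II), -0.247 (III), 0.163 (IV) and -0.0385 (V), and the authors' values -0.131 (I), -0.187 (II), -0.0639 (III), -0.0811 (IV) and -0.101 (V), with all genes at -0.0794. The mean local background beside probes was 266, 322 and 267 on Cre arrays, against 232, 194 and 179 on control arrays, without overlap. Beside blanks it was 57.5 to 63.0 per array. The part of this group difference in the values with the local background column was not tested. The cause of the shifts in the medians was not tested either. With 1 array left out the medians ranged from -0.018 to 0.093 for all members, -0.037 to 0.038 (I), -0.081 to 0.15 (II), 0.043 to 0.17 (III), 0.0029 to 0.11 (IV), 0.013 to 0.14 (V).

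Of 39 named genes, 13 kept their sign in every setting run. In the authors' values all genes stood at -0.079, so Cox7a2, Cox5b, Sdha and Cox6b2, though below 0 there, lay above the all-gene median. The sign turned with the local background column for Ndufb2 (-1.35), Uqcrh (-1.13), Uqcrq (0.020), Cox7a2 (-0.27), Cox6a2 (0.16), Cox7b2 (0.094), Atp5mpl (-0.22), Atp5j (0.0014), Sdhb (0.67), Sdhc (0.051), Cycs (-1.38), Cox6a1 (-0.21), Cox6b1 (-1.26), Cox8b (0.046), Ndufa11b (-0.35), with median scaling for Cycs (-0.0091), Cox4i1 (-0.021), Cox6a1 (-0.021), Cox6b1 (-0.021), Atp5g3 (-0.039), and in the authors' values for Cox7a2 (-0.039), Cox5b (-0.011), Sdha (-0.058), Cycs (-0.12), Cox4i1 (-0.13), Cox4i2 (-0.081), Cox6a1 (-0.13), Cox6b1 (-0.13), Cox6b2 (-0.0035), Cox8a (-0.10), Atp5g3 (-0.15), Ndufa11b (-0.093). With 1 array left out, differences that took both signs ranged as follows: Uqcrc2 -0.18 to 0.042, Cox7a2l -0.61 to 0.11, Sdhc -0.17 to 0.24, Sdhd -0.094 to 0.054, Cox8b -0.048 to 0.011, Cox4i2 -0.043 to 0.10, Cox8a -0.034 to 0.094, Atp5g3 -0.088 to 0.21, Sdhb -0.13 to 0.057, Cox6a1 -0.013 to 0.14, Cox6b1 -0.052 to 0.085, Cycs -0.011 to 0.13, Cox4i1 -0.029 to 0.093, Cyc1 -0.25 to 0.038, Atp5j -0.30 to 0.073, Ndufa11b -0.10 to 0.33, Sdha -0.060 to 0.31. The causes were not tested. A slide or scan batch could not be used as a block, since the headers name none. No paired analysis beyond the replicate block (median 0.055, 10 higher and 4 lower) was run, and it changed no adjusted call. Signal over background set a limit for 1 probe, since 97 of 98 member probes were above background on all 6.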
